A study of Mus musculus with 8 samples.

Results

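The genes described here are the core and linker histone genes that mouse cells carry in many copies, most of them transcribed with DNA replication. They were taken by symbol, as genes whose name begins with Hist1h to Hist4h or with H1f, H2ac, H2bc, H3c or H4c and a digit, when their counts summed to at least 10 over the 8 libraries. Of 35896 genes in the table, 72 had such a symbol and 63 reached this sum: 8 linker histone H1 genes, 15 H2A, 16 H2B, 12 H3 and 12 H4 genes. H1f0 and H1f10 match the symbols too, although they are linker histones made independently of replication, and they are kept as a comparison.

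The libraries were made from aortic tissue of male C57BL6 mice, 11 weeks old at the start, and compared 4 groups of 2 libraries. In AngII, osmotic minipumps delivered angiotensin II for 2 weeks at 2.8 mg/kg/d and the aorta was taken when the infusion ended. AngII+2W and AngII+3W received the same infusion and were followed for 2 or 3 more weeks without it, and CTRL mice were untreated littermates whose time point the labels do not give. Each library pooled tissue of 2 mice, so that the 2 libraries of a group came from different animals and every p-value rests on the spread between pools. Ribosomal RNA was depleted from total RNA, so that messages without a poly(A) tail were not removed by selection.

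Histones package DNA: pairs of H2A, H2B, H3 and H4 form the nucleosome core, and H1 binds the linker DNA between cores. A dividing cell must make them in step with its new DNA, and it does so from intronless genes packed in clusters, whose messages end in a conserved stem-loop in place of a poly(A) tail. The stem-loop is bound by the protein encoded by Slbp, and outside S phase these messages are degraded. Some of the same genes can also yield polyadenylated messages in cells that no longer divide. In the arterial wall, smooth muscle cells divide rarely in healthy adults and more often after injury or in hypertension.

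Counts per library summed to between 18130441 and 21498200, and 3 counts, the floor of detection used here, were worth 0.140 to 0.165 CPM (counts scaled by the TMM-normalized library size, as counts per 1000000). The 63 genes took between 0.0570% and 0.130% of all counts. All 8 markers of smooth muscle cells were detected, with a summed level of 7404 to 9519 CPM in the CTRL libraries and 1759 to 2186 CPM in AngII. Skeletal muscle markers summed to 2633 CPM in 1 AngII+3W library and to at most 74.3 CPM in the other libraries, and cardiac muscle markers ranged from 83.0 to 6027 CPM over all libraries, so that adjoining tissue differed between libraries. Mitochondrial genes held 8.15% to 18.3% of the counts. The part of these differences in the histone values was not tested.

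**Figure D1:**
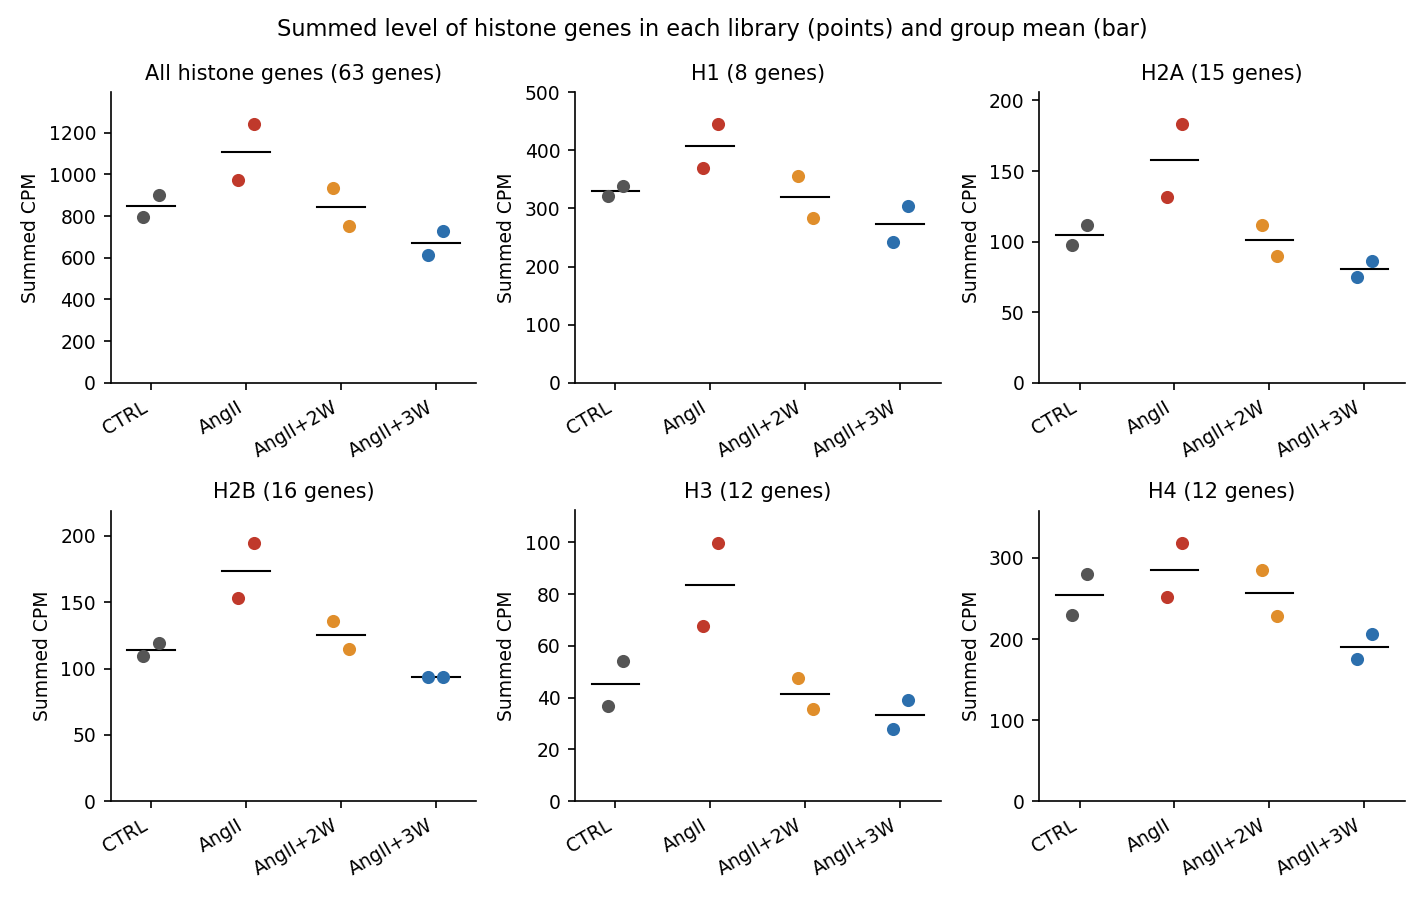
Summed CPM of all 63 histone genes and of each class (vertical axes from 0) in each library (points) of the 4 groups, with the group mean as a bar. In H2A, H2B and H3 both AngII points lie above all 6 others, while the H4 points of AngII overlap those of CTRL.

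On GRCm38, 51 of the 63 genes lie on chromosome 13 between positions 21715763 and 23764406, and 10 lie on chromosome 3 between 96219865 and 96270132. H1f0 is on chromosome 15 and H1f10 on chromosome 6. In the GENCODE M21 annotation, 59 of the 63 have a single exon. The 16 letters of the histone 3′ stem-loop, searched as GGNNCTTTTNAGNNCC on the sense strand, occur in the annotated transcript of 40 of the 63 genes and in 98 of 58797 protein-coding transcripts (0.167%). All 40 can pair 6 bases on each side of a 4-base loop. The stem-loop is shown for 6 of the genes described below because it is what sets these messages apart. The letters of its stem also differ between H4 and the other classes (capitals mark the 16 letters, lower case the 5 bases on either side, 5′ to 3′).

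H3c2: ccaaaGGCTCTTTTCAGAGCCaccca
H3c3: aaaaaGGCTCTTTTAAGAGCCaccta
H4c2: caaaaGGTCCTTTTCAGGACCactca
H4c8: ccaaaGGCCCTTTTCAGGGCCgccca
H2ac20: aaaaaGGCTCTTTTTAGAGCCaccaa
H1f2: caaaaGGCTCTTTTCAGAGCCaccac

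These stretches lie at chr13:23752815-23752840 for H3c2, chr13:23745042-23745067 (minus strand) for H3c3, chr13:23757361-23757386 for H4c2, chr13:23531453-23531478 for H4c8, chr3:96220413-96220438 (minus strand) for H2ac20 and chr13:23739507-23739532 for H1f2. The form printed for H3c2 and H1f2 was held by 23 genes of H1, H2A, H2B and H3, and by none of the H4 genes. The form of H4c8 was found in 6 genes, all of them H4, and that of H4c2 in 2 H4 genes. H3c3 and H2ac20 share the stem of H3c2 and H1f2 and differ from it in the last loop base. The whole form of H3c3 was found in 6 genes, and that of H2ac20 in this gene alone. In 21 genes the annotated transcript ends within 100 bases of the stem-loop, from 3 bases after it in Hist1h2ap to 74 in H3c3. In 19 it runs on for longer. In 23 the annotated transcript holds no such stem-loop, which does not show that the gene lacks one. Some of these 23 transcripts are short and may be annotated without their 3′ end. H2bc13 has 381 bases and H4c12 312, against 463 in H2bc11, where the stem-loop lies 23 bases before the end.

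At the end of the infusion, some histone genes of each class were higher than in CTRL, while most did not pass the test. Of the 62 that passed the filter on low counts, 16 were called higher in AngII and none lower by edgeR's quasi-likelihood test (FDR under 0.05 over 17182 genes), against 2.9% of all genes called higher and 2.2% called lower. The unadjusted p was under 0.05 for 38 histone genes, all higher (10.9% of all genes were higher at that p), and for none that were lower (9.29% of all genes). DESeq2 called 28 higher and limma-voom 18, and neither called a histone gene lower. In either direction, DESeq2 called 1588 and limma-voom 840 of all 17182 genes. The median log2 fold change over the 62 genes was 1.15, and 1.14 without Hist1h2an and Hist1h2bp, against -0.01 for all genes. In 46 of them both AngII libraries lay above both CTRL libraries (24.4% of all genes), and in 40 of the 63 both AngII libraries lay above all 6 others (11.9% of all genes). In whole tissue, more cells that express a gene and more RNA per cell cannot be told apart. The filter kept Hist1h2an and Hist1h2bp only through the AngII libraries, and H1f6, a testis linker histone with 13 counts in all, did not pass it.

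The number called depends on the 8 libraries together. It was 3 without AngII replicate 1, 0 without AngII replicate 2, 0 without CTRL replicate 1 and 1 without CTRL replicate 2. It was 3 without either AngII+2W library, and 23 and 22 without AngII+3W replicate 1 and replicate 2. Over these fits the median log2 fold change of the histone genes stayed between 0.81 and 1.40, and 24 to 39 of them had an unadjusted p under 0.05, all higher in AngII. AngII replicate 2 held the higher value of the 2 AngII libraries in 57 of the 63 genes.

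**Figure D2:**
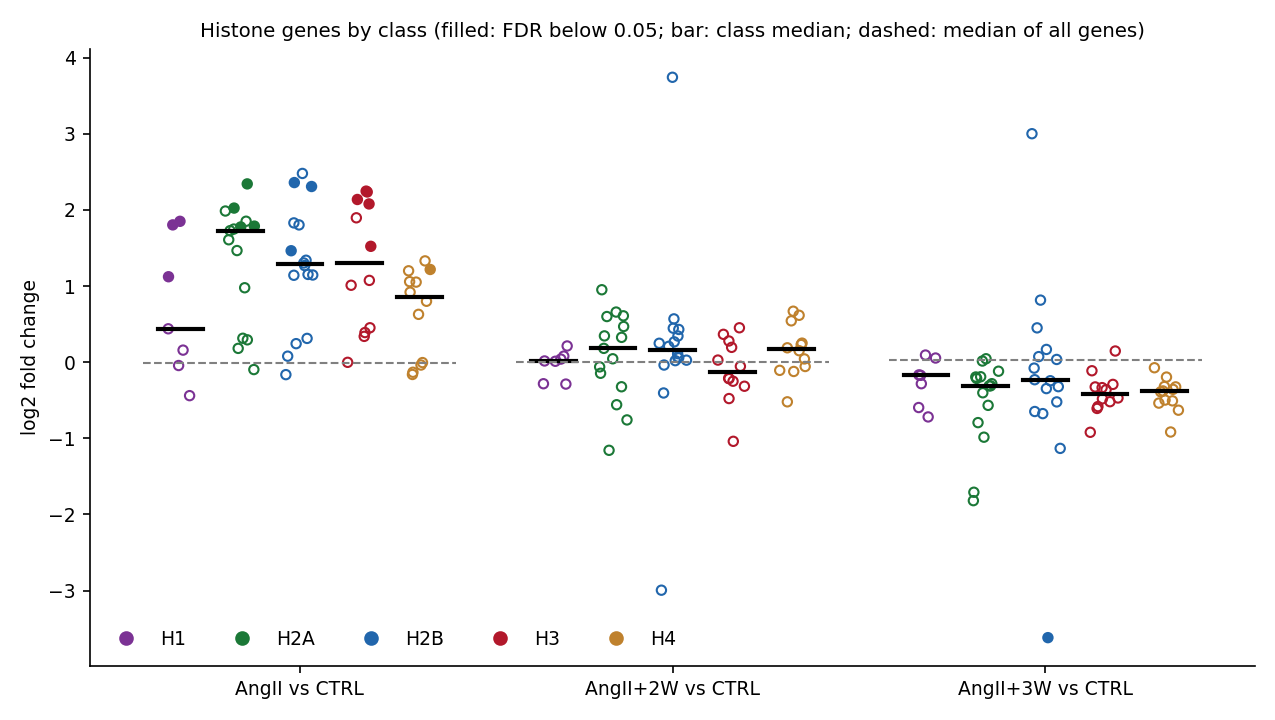
The log2 fold change of each histone gene (vertical axis) against CTRL at the end of the infusion and 2 and 3 weeks after it, by class, with filled points at FDR below 0.05, bars at class medians and dashed lines at the median of all genes. In AngII vs CTRL every class median lies above the dashed line, from 0.44 in H1 to 1.73 in H2A, and in AngII+3W vs CTRL every class median lies below it.

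H3 genes held the smallest FDR. H3c2 (Hist1h3b, ENSMUSG00000069267, chr13:23752267-23752886) encodes a canonical H3 and had 1.80 and 1.50 CPM in the CTRL libraries and 5.99 and 8.57 CPM in those of AngII. It was at 2.43 and 1.82 CPM by AngII+2W, and at 1.02 and 1.34 CPM by AngII+3W. Both AngII libraries were above every other library. The log2 fold change over CTRL was 2.14 ± 0.30 (SE, n = 2 libraries each, edgeR FDR = 0.0140), and it was between 1.85 and 2.37 when single libraries were left out. H3c1, H3c3 and H3c4, 3 further H3 genes of the chromosome 13 cluster, rose with it by 2.25, 2.24 and 1.52 on the log2 scale. H3c15, on chromosome 3, went from 2.43 and 2.44 CPM in CTRL to 8.36 and 12.3 CPM in AngII, and was the single gene of that cluster to pass (log2 fold change 2.08 ± 0.43, edgeR FDR = 0.0395). The 3 H3 genes with the most counts behaved otherwise. H3c6 had 9.11 and 16.0 CPM in CTRL and 9.44 and 15.6 CPM in AngII, so that the groups overlapped (log2 fold change 0.00 ± 0.38). H3c7 and H3c13 also overlapped with CTRL, at 0.45 ± 0.33 and 0.34 ± 0.37. These 3 held 59.7% of the H3 total in CTRL and 38.0% in AngII, and the H3 total went from 45.5 ± 12.4 CPM to 83.7 ± 22.8 CPM (mean ± SD, n = 2), a ratio of 1.84.

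Among H2A genes, 4 of 15 were called higher (2.9% of all genes). In 13 of 15 both AngII libraries lay above both CTRL libraries (24.4% of all genes). H2ac8 (Hist1h2ae) had 0.974 and 1.27 CPM in CTRL and 4.05 and 5.11 CPM in AngII, followed by 2.05 and 1.34 CPM in AngII+2W and 0.859 and 1.07 CPM in AngII+3W. Its log2 fold change over CTRL was 2.02 ± 0.33 (edgeR FDR = 0.0193). H2ac11, at 1.17 and 0.987 CPM in CTRL, reached 4.43 and 6.54 CPM in AngII. H2ac15 went from 1.70 and 2.92 to 6.91 and 8.95 CPM, and Hist1h2ap from 2.63 and 3.34 to 7.39 and 13.2 CPM. All 4 lie on chromosome 13 and encode canonical H2A. The most abundant H2A message, H2ac18 on chromosome 3, had 71.1 and 59.8 CPM in CTRL and 74.3 and 74.0 CPM in AngII (log2 fold change 0.18 ± 0.19, edgeR FDR = 0.674). H2ac20, in the same cluster, had 10.9 and 13.7 CPM in CTRL and 14.0 and 16.1 CPM in AngII (0.29 ± 0.19). The 3 H2A genes with the most counts held 82.7% of the H2A total in CTRL and 63.7% in AngII.

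For H2B, 3 of 16 genes were called higher (2.9% of all genes). At an unadjusted p under 0.05 by edgeR, 9 were higher and 0 lower (10.9% and 9.29% of all genes). In 12 both AngII libraries lay above both CTRL libraries (24.4% of all genes), and the median log2 fold change was 1.29. H2bc12 had 1.27 and 1.69 CPM in CTRL and 5.99 and 9.23 CPM in AngII (log2 fold change 2.36 ± 0.46, edgeR FDR = 0.0325). H2bc13 went from 0.536 and 0.376 CPM to 2.43 and 2.13 CPM, counts of 11 and 8 against 45 and 45. H2bc9 went from 2.24 and 2.35 CPM to 5.23 and 7.44 CPM (log2 fold change 1.46 ± 0.25, edgeR FDR = 0.0228). The highest log2 fold change of all histone genes, 2.48 ± 0.62 in H2bc14, did not pass (edgeR FDR = 0.0654), and its CTRL libraries of 6 and 27 counts lay far apart. H2bc4, which had the most H2B counts, had 49.2 and 52.2 CPM in CTRL and 58.6 and 61.5 CPM in AngII. These groups did not overlap, but the difference was 0.24 ± 0.11 on the log2 scale and did not pass. H2bc6 overlapped, with 16.5 and 20.6 CPM in CTRL and 16.1 and 23.0 CPM in AngII (0.08 ± 0.22). H2bc21 overlapped as well, with 15.1 and 12.9 CPM in CTRL and 13.2 and 11.8 CPM in AngII.

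H4 had the fewest calls of the 5 classes (2.9% of all genes were called higher). At an unadjusted p under 0.05 by edgeR, 7 of 12 H4 genes were higher and 0 lower (10.9% and 9.29% of all genes). In 8 both AngII libraries lay above both CTRL libraries (24.4% of all genes), and the median log2 fold change was 0.86. H4c2 alone of the 12 was called higher (log2 fold change 1.22 ± 0.24, edgeR FDR = 0.0334). It went from 4.29 and 5.97 CPM in CTRL to 9.98 and 13.9 CPM in AngII. It was also the H4 gene with the highest log2 fold change in AngII+2W vs CTRL, at 8.54 and 7.78 CPM (0.67 ± 0.24, edgeR FDR = 0.378, not passed). H4c8 had the highest level of all 63 genes per kb of transcript, with 61.8 and 76.8 CPM in CTRL against 66.0 and 72.1 CPM in AngII. Values were 72.3 and 60.9 CPM at AngII+2W and 49.8 and 56.8 CPM at AngII+3W. Its AngII and CTRL libraries overlapped, with a log2 fold change of -0.01 ± 0.16. H4c4 and H4c3 also overlapped with CTRL, at -0.04 ± 0.19 and -0.16 ± 0.17. With these 3 holding 77.0% of the H4 counts in CTRL, the H4 total was 254 ± 35.9 CPM in CTRL and 285 ± 47.0 CPM in AngII, and the 2 groups overlapped.

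Linker histones divided by gene. H1f1 (Hist1h1a, at chr13:23763666-23764406), a replication-dependent linker histone, had 2.00 and 2.07 CPM in CTRL against 5.77 and 8.43 CPM in AngII. Later values were 2.47 and 1.61 CPM at AngII+2W and 0.966 and 1.72 CPM at AngII+3W. Its log2 fold change over CTRL at the end of the infusion was 1.80 ± 0.35 (edgeR FDR = 0.0331). H1f5, at 3.02 and 4.18 CPM in CTRL, reached 10.8 and 15.2 CPM (1.85 ± 0.40, edgeR FDR = 0.0417), and H1f3 went from 16.4 and 19.2 CPM to 30.8 and 46.7 CPM (1.12 ± 0.24, edgeR FDR = 0.0428). H1f2, which had the most counts of all histone genes, had 138 CPM in both CTRL libraries and 143 and 165 CPM in AngII (0.16 ± 0.18, edgeR FDR = 0.687). H1f4 had 83.8 and 79.6 CPM in CTRL and 66.2 and 92.2 CPM in AngII, which overlap. The replacement linker histone H1f0, made without DNA replication, had 75.0 and 89.8 CPM in CTRL and 110 and 113 CPM in AngII, groups that did not overlap, but did not pass (0.44 ± 0.14, edgeR FDR = 0.131). H1f10, also independent of replication, had 2.97 and 5.08 CPM in CTRL and 1.78 and 4.12 CPM in AngII. H1f6 had at most 4 counts in any library.

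**Figure D3:**
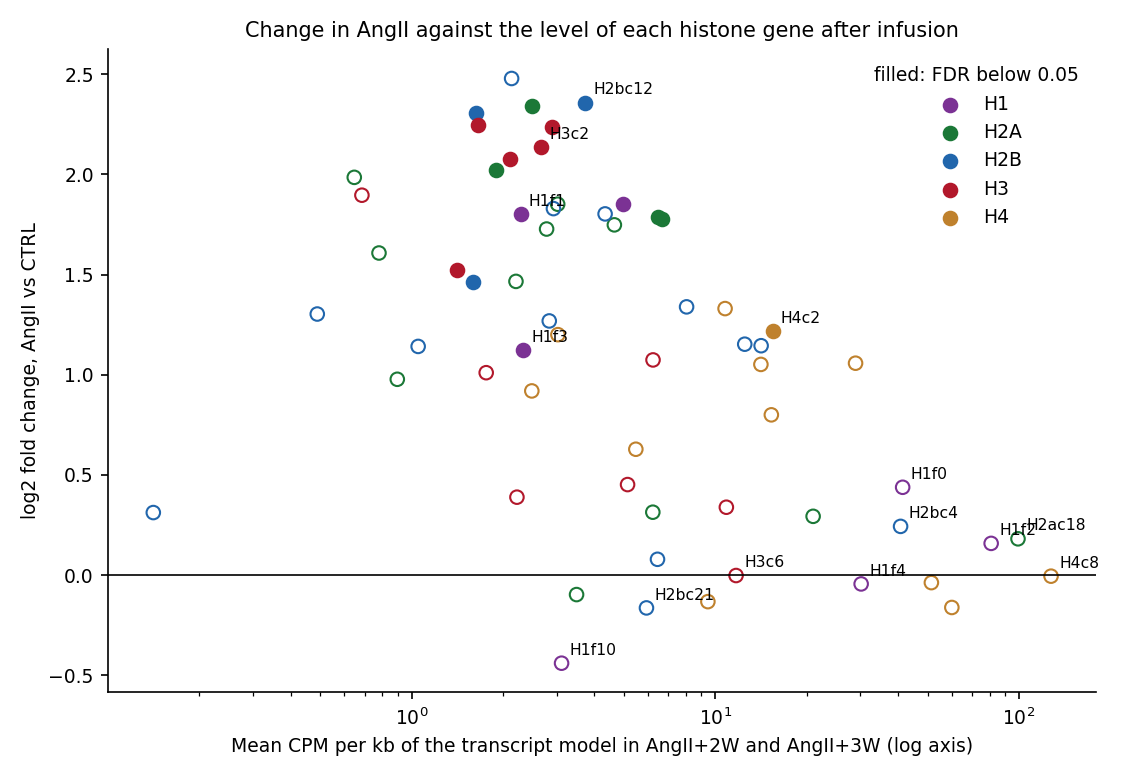
The log2 fold change in AngII vs CTRL (vertical axis) of the 62 histone genes tested against their mean CPM per kb of transcript in the AngII+2W and AngII+3W libraries (horizontal, log axis), coloured by class and filled at FDR below 0.05. All filled points but H4c2 lie at or below 6.65 CPM per kb, and genes above 30 CPM per kb lie between -0.16 and 0.44.

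Calls and fold changes were described by the level of each gene, beside the 2.9% of all genes called higher. Levels were taken per kb of transcript and from the 4 libraries of AngII+2W and AngII+3W, which take no part in the AngII vs CTRL difference. In the 20 genes at the lowest levels, from 0.141 to 2.49 CPM per kb, 8 were called higher in AngII and the median log2 fold change was 1.49, also without Hist1h2an and Hist1h2bp. The middle 22 genes had 7 called and a median of 1.74. Of the 20 at the highest levels, from 8.04 to 128 CPM per kb, H4c2 alone was called, and the median was 0.32. As a description over 62 genes, which share libraries and reads, the correlation of the log level with the log2 fold change was -0.52 (Pearson) and -0.55 (Spearman), and -0.51 and -0.54 over the 60 genes without those 2. For CPM without the division by length these were -0.66 and -0.68 in the histone genes, and -0.09 and -0.06 over all 17182 genes. The total of all 63 genes was 849 ± 76.8 CPM for CTRL and 1107 ± 189 CPM for AngII, a ratio of 1.30 (0.38 on the log2 scale, 0.20 without AngII replicate 2 and 0.55 without AngII replicate 1). For the 16 called genes alone, which were chosen on this difference, the totals were 44.3 and 53.1 CPM in CTRL and 124 and 176 CPM in AngII.

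The position and the annotated 3′ end of a gene went with the difference as follows. On chromosome 13, 15 of the 50 genes tested were called, with a median log2 fold change of 1.32, and on chromosome 3 it was 1 of 10, with a median of 0.30. Of all genes, 2.9% were called higher. Where the annotated transcript ends within 100 bases of the stem-loop, 7 of 21 genes were called and the median was 1.34. Where it runs on further, 5 of 18 were called and the median was 0.69. Without a stem-loop in the annotated transcript, 4 of 23 were called and the median was 1.15. These are counts and medians by position and by annotation, and the differences between these sets were not tested.

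In AngII+2W, the median histone gene stood close to its CTRL level. No histone gene was called in AngII+2W vs CTRL by edgeR's quasi-likelihood test (0.0% of all genes were called). At an unadjusted p under 0.05 there were 2 higher and 1 lower (4.52% and 6.18% of all genes). DESeq2 called 1 of 62 higher and 1 lower, and 373 of all 17182 genes in either direction. By limma-voom, 0 histone genes and 0 of all genes were called. The median log2 fold change over CTRL was 0.06. Against AngII the median was -1.09, with 34 genes lower and 2, H2bc21 and Hist1h2bq, higher at an unadjusted p under 0.05 (8.45% and 6.57% of all genes) and 43 with groups that did not overlap in that direction (27.5% of all genes). Without AngII replicate 2 the median was -0.59 with 20 lower, and without AngII+2W replicate 2 it was -0.86 with 21 lower. H3c2 went from 5.99 and 8.57 CPM in AngII to 2.43 and 1.82 CPM (log2 fold change -1.77 ± 0.29, edgeR FDR = 0.0655), which did not pass. The single call lower than AngII was Hist1h2br (0.14% of all genes were called lower and 0.0233% higher), and it is described with its near-identical copy below. DESeq2 called 17 lower and 1 higher (685 of all 17182 genes were called in either direction). Groups compared here share the AngII or the CTRL libraries, so the comparisons are not independent of each other.

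At 3 weeks, histone genes stood clearly below AngII. In AngII+3W vs AngII, 15 of 62 were called lower and none higher, against 1.32% of all genes called lower and 0.285% called higher, with a median log2 fold change of -1.52. At an unadjusted p under 0.05, 52 were lower and 1, Hist1h2bq, was higher (10.4% and 7.41% of all genes). DESeq2 called 37 lower (968 of all 17182 genes were called in either direction). H3c2 fell by 2.62 on the log2 scale (SE 0.31, edgeR FDR = 0.0206), and H3c4, from 5.50 and 5.35 CPM to 1.13 and 1.34 CPM, fell by 2.13. H2ac12, which did not pass in AngII vs CTRL (1.61 ± 0.40, edgeR FDR = 0.0655), went from 1.78 and 2.60 CPM in AngII to 0.215 CPM in both AngII+3W libraries, 4 counts in each, a log2 fold change of -3.32 ± 0.47 (edgeR FDR = 0.0264). H4c2 fell by 1.54, and of the linker histones H1f1 fell by 2.40. Of the 16 genes higher in AngII and the 15 lower at 3 weeks, 10 were in both lists (62.5% and 66.7% of the lists), and both comparisons use the same AngII libraries. The number lower was 0 without AngII replicate 2, without AngII+3W replicate 1 or without either AngII+2W library, 3 without AngII replicate 1, 5 without either CTRL library and 25 without AngII+3W replicate 2. In all these fits the median stayed between -1.78 and -1.14.

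Compared with CTRL, the AngII+3W libraries held slightly less. Of 62 genes, 51 had a log2 fold change below 0, the median was -0.33 against 0.03 for all genes (-0.16 without AngII+3W replicate 1, -0.19 without CTRL replicate 2 and -0.65 without AngII+3W replicate 2), and in 26 both AngII+3W libraries lay below both CTRL libraries (18.3% of all genes). Of these, 1 gene passed, Hist1h2br (0.268% of all genes were called lower and 0.0175% higher), and 8 were lower at an unadjusted p under 0.05 (7.18% of all genes were lower and 5.34% higher). The histone total was 672 ± 82.3 CPM in AngII+3W and 849 ± 76.8 CPM in CTRL, 614 and 730 CPM against 794 and 903 CPM, which do not overlap. H4c4 had 62.9 and 81.2 CPM in CTRL and 47.0 and 55.0 CPM in AngII+3W (log2 fold change -0.50 ± 0.19, edgeR FDR = 0.332). H1f4 had 83.8 and 79.6 CPM against 39.6 and 59.5 CPM (-0.72 ± 0.24, edgeR FDR = 0.268). Neither difference passed. In AngII+3W vs AngII+2W, edgeR called 0 histone genes (0.0% of all genes), with 13 lower and 0 higher at an unadjusted p under 0.05 (4.22% and 4.62% of all genes). DESeq2 and limma-voom called 0 as well, with 221 and 0 of all 17182 genes called in either direction.

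**Figure D4:**
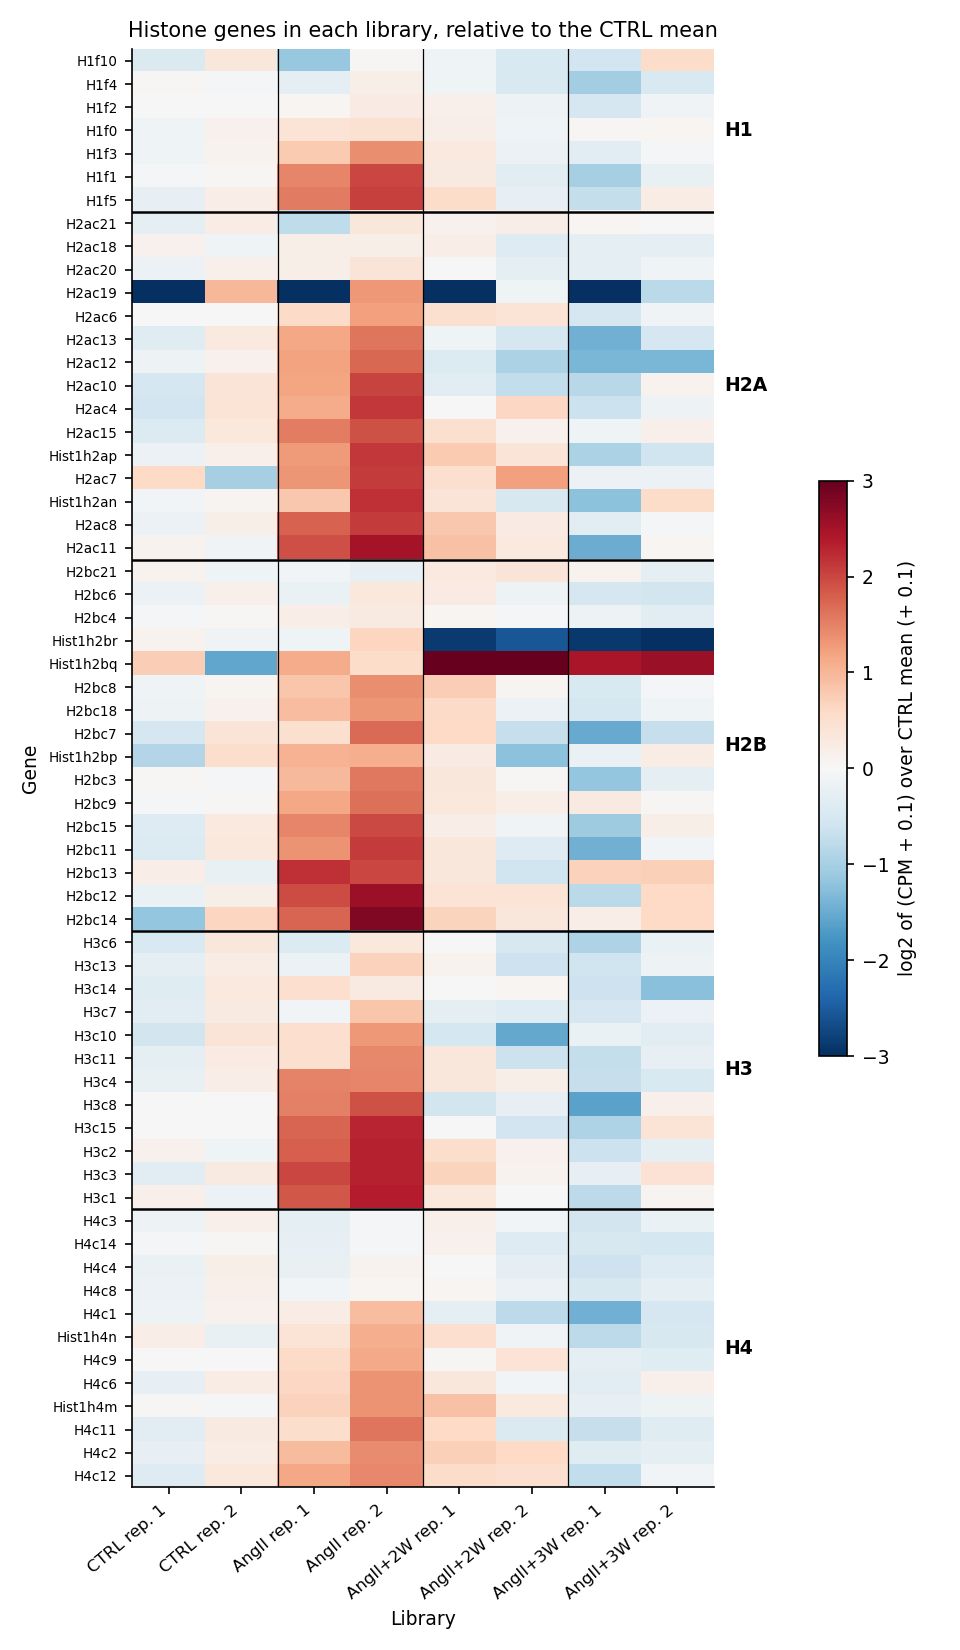
Each row is a histone gene and each column a library, grouped by class, and colour gives log2 of (CPM + 0.1) over the CTRL mean (+ 0.1), cut off at 3 in either direction. Both AngII columns are red in most rows, Hist1h2bq and Hist1h2br switch in opposite directions after the infusion, and H2ac19 is at 0 in every replicate 1.

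Histone genes are so alike that reads cannot always be given to the right copy. By alignment of the annotated transcripts, 45 of the 63 genes have another of them that is at least 95% identical over at least 80% of the shorter transcript, in 5 groups: 14 H2B genes, all 12 H3 genes, 11 H2A genes, 6 H4 genes and the pair H2ac18 and H2ac19. Levels of single genes in these groups are therefore uncertain. When each group was summed before the fit, the 11 H2A genes rose together in AngII (log2 fold change 1.74, edgeR FDR = 0.0174) and fell by 2.17 in AngII+3W vs AngII (edgeR FDR = 0.0227). The H2B sum gave 0.66 (edgeR FDR = 0.0712), the H3 sum 0.88 (edgeR FDR = 0.124) and the H4 sum 0.39 (edgeR FDR = 0.282) in AngII vs CTRL, none past the threshold. In AngII+3W vs AngII the H2B sum fell by 0.97 (edgeR FDR = 0.0439), while the H3 sum, at -1.32 (edgeR FDR = 0.0710), the H4 sum, at -0.77 (edgeR FDR = 0.0888), and the sum of H2ac18 and H2ac19, at -0.60 (edgeR FDR = 0.145), did not pass. The called linker histones H1f1, H1f3 and H1f5 have no such copy.

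A few copies went in opposite ways. Hist1h2br counts were 67 and 60 for CTRL, 51 and 101 for AngII, 7 and 8 for AngII+2W and 6 and 3 for AngII+3W, and it was called lower in AngII+2W and AngII+3W than in AngII and lower in AngII+3W than in CTRL. Its near-identical neighbour Hist1h2bq had 8 and 0, 10 and 7, 63 and 44, and 28 and 31 counts in the same order. Each was low where the other was high. Their sum was 75 and 60 counts for CTRL, 61 and 108 for AngII, 70 and 52 for AngII+2W and 34 for both AngII+3W libraries, and with the pair summed no call was left (AngII+3W vs AngII: log2 fold change -1.20, edgeR FDR = 0.0962). H2ac19 is identical to H2ac18 over the aligned transcript and had 0 counts in replicate 1 of all 4 groups, while replicate 2 had 379 (CTRL), 466 (AngII), 151 (AngII+2W) and 94 (AngII+3W). Replicate numbers went with direction elsewhere too: replicate 2 held the higher CPM in 46 of the 63 genes for CTRL, 57 for AngII, 10 for AngII+2W and 53 for AngII+3W, against 48.6% to 51.7% of all genes.

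The promoters of these genes carry shared short motifs. A RefSeq window of 300 bases (GRCm38.p6, 250 before and 50 after the gene's start) was found for 58 of the 63 genes. On either strand, TATAAA was in 55.2% of them and in 13.6% of all 32851 windows, and CCAAT in 82.8% against 37.4%. CCAAT was in every H2A, H2B and H3 window and in 3 of 11 H4 windows. The octamer ATGCAAAT, a site of POU-family factors, was in 5 H2A and 5 H2B windows and in 1.74% of all windows. AAACACA, known from H1 promoters, was in 5 of 8 H1 windows and in 7.18% of all windows. Windows of some neighbouring genes overlap, as those of H2ac12 and H2bc12 do, so that the same bases can count for both genes. Matches were counted anywhere in the window. On the sense strand, TATAAA lay at -33 to -26 bases from the start in H1 but at -250 to 41 in H4. On the other strand of H2B windows it lay at -212 to -190. Genes called higher in AngII did not stand out: TATAAA was in 53.3% of their 15 windows and in 55.8% of the other 43, and CCAAT in 93.3% and 79.1%. The windows of H3c2 and H1f1, which rose, and of H1f0, a linker histone made independently of replication, are printed as examples (capitals mark TATAAA and CCAAT). The window of H1f0 holds none of the 4 motifs, but neither do those of H4c2, which was called higher, and H4c8. That of H2bc9, also called higher, holds CCAAT but not TATAAA.

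H3c2: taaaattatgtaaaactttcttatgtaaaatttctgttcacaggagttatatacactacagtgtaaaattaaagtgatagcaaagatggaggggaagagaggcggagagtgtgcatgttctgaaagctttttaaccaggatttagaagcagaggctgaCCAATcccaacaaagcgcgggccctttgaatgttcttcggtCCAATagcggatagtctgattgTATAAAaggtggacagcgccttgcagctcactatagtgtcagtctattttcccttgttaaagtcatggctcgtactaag
H1f1: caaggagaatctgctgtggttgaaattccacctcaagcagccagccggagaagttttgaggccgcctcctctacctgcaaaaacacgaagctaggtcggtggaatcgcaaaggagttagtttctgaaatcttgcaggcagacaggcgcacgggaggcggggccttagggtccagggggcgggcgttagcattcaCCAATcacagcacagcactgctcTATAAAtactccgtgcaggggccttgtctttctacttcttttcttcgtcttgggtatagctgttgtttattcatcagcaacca
H1f0: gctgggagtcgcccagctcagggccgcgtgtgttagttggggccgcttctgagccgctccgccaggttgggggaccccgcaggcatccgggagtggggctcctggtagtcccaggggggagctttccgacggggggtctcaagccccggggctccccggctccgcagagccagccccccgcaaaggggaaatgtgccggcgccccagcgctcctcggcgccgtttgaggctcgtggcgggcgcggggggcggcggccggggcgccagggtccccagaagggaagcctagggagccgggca

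These windows lie at chr13:23752095-23752394, chr13:23763418-23763717 and chr15:79027962-79028261, all on the plus strand. A match of letters is a description and does not show that a factor binds there.

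Other genes of the histone supply and of the cell cycle were compared from lists. Most genes listed as replication-independent histone variants stayed close to CTRL in AngII, and the median log2 fold change was 0.08. Of 9 tested, 0 passed by edgeR, DESeq2 or limma-voom, and 1 was higher at an unadjusted p under 0.05 by edgeR. That gene, H2ax, whose product marks broken DNA, stood at 7.01 and 7.71 CPM for CTRL, at 8.90 and 12.7 CPM for AngII and at 4.94 and 4.72 CPM for AngII+3W. It did not pass in AngII vs CTRL (0.55 ± 0.21, edgeR FDR = 0.188), and was lower in AngII+3W than in AngII (edgeR FDR = 0.0472). The list places H2ax by name, and whether its messages were made with or apart from DNA replication was not tested. Macroh2a2, a macroH2A variant, was at -0.53 ± 0.30 and H2az1, an H2A.Z gene, at 0.25 ± 0.20 on the log2 scale in AngII vs CTRL, and neither passed. Histone pre-mRNA processing genes gave 0 calls of 19 in AngII vs CTRL by the same 3 tools, with 2 higher and 1 lower at an unadjusted p under 0.05 by edgeR and a median of 0.04. Slbp was at a mean of 21.1 CPM in CTRL and 21.2 CPM in AngII. Those nearest to a call were the 3′ exonuclease Eri1 (0.41 ± 0.15), the cleavage factor Cpsf2 (0.33 ± 0.14) and the transcriptional coactivator Npat (-0.38 ± 0.16), none of which passed. Histone chaperone and acetylation genes gave 0 calls of 20 by these tools and 0 at an unadjusted p under 0.05, with a median of -0.01. The smallest p in this list were those of Chaf1b (0.79 ± 0.37) and Chaf1a (0.43 ± 0.22), subunits of the assembly factor CAF-1, and of Hjurp (0.25 ± 0.13), the chaperone of the centromeric H3.

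**Figure D5:**
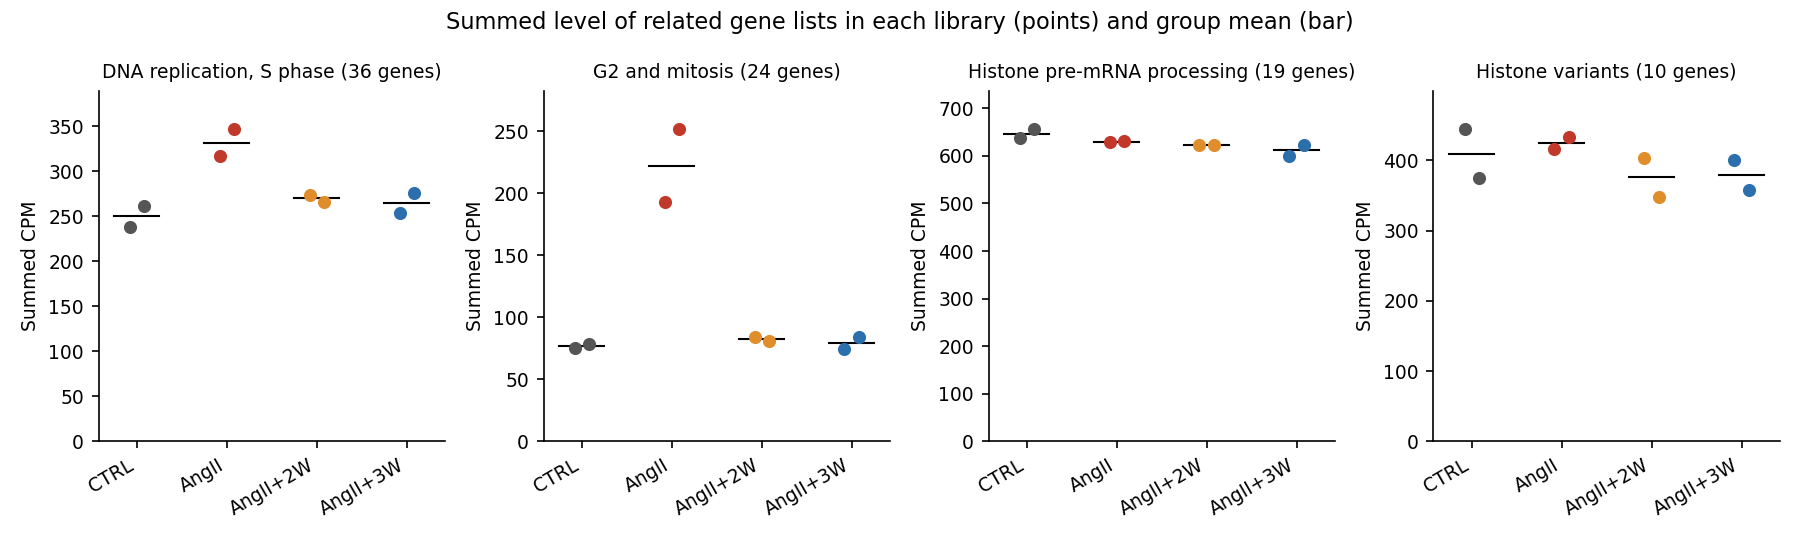
Summed CPM (vertical axes from 0) of 4 gene lists in each library (points), with the group mean as a bar. The S phase and G2 and mitosis points of AngII lie above all others, while the histone pre-mRNA processing points span 600 to 655 CPM and do not set AngII apart.

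Genes of S phase and of mitosis were also called, where 2.9% of all genes were called higher in AngII vs CTRL. Of 35 DNA replication and S phase genes, 5 rose in AngII (Ccna2, Clspn, Dtl, E2f1 and Rrm2), and the median log2 fold change was 0.58. Rrm2, a subunit of the enzyme that makes deoxynucleotides, went from 1.56 and 2.02 CPM to 5.23 and 6.35 CPM (1.69 ± 0.25, edgeR FDR = 0.0160). The cyclin gene Ccna2 (1.97 ± 0.30) and the transcription factor gene E2f1 (1.45 ± 0.26) came next by p. Of 24 G2 and mitosis genes 16 were called higher, with a median of 1.61 over the list. The proliferation marker Mki67 went from 11.0 and 12.3 CPM to 48.6 and 66.3 CPM (2.30 ± 0.21, edgeR FDR = 0.0053). It was followed by the topoisomerase gene Top2a (2.03 ± 0.23) and the mitotic kinesin gene Kif11 (1.99 ± 0.25). In AngII+3W vs AngII, 2 S phase genes and 9 G2 and mitosis genes were called lower (1.32% of all genes). The S phase total was 238 to 262 CPM in CTRL, 317 to 347 CPM in AngII and 254 to 276 CPM in AngII+3W. For G2 and mitosis these totals were 75.2 to 78.6, 193 to 251 and 74.8 to 84.0 CPM. The lists were chosen with earlier results of these data known.

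Totals of some cell type markers moved with the same comparison. All 16 leukocyte markers were detected, and their total was 368 to 413 CPM in CTRL, 693 to 1088 CPM in AngII, 555 to 597 CPM in AngII+2W and 302 to 509 CPM in AngII+3W. For the 7 fibroblast markers it was 2536 to 3956, 16380 to 26321, 5322 to 7311 and 2093 to 5225 CPM. Most of it in AngII came from Col1a1, at 6635 and 11171 CPM, and Col3a1, at 8387 and 13388 CPM. By gene, 3 of 16 leukocyte and 3 of 7 fibroblast markers were called higher in AngII vs CTRL (2.9% of all genes), with median log2 fold changes of 0.36 and 1.64. In 8 leukocyte markers both AngII libraries lay above both CTRL libraries (24.4% of all genes), and in 2 below. Erythroid marker totals, from 6 genes, were 4294 to 4356 CPM in CTRL, 3021 to 3060 CPM in AngII and 787 to 1181 CPM in AngII+3W. The 7 endothelial markers summed to 955 to 1098 CPM in CTRL and 1120 to 1188 CPM in AngII, and the 6 adipocyte markers to 5335 to 6906 CPM and 7002 to 8399 CPM. Which cells the histone messages came from was not measured, and the part of these changes in cell type markers in the histone values was not tested.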

How the data were processed

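RNA-sequencing of aortic tissue gave 8 libraries, 2 in each of 4 groups taken from the labels. The authors quantified reads with Salmon on the Ensembl mouse cDNA of GRCm38 and summed transcripts to genes, and the deposited table holds these estimated counts as whole numbers without normalization. Salmon shares reads among near-identical transcripts by estimation, so that single histone genes can gain or lose counts to their copies.

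Tests of the counts used edgeR 4.0.16 under R 4.3.3 (filterByExpr, TMM, legacy quasi-likelihood F test, all 8 libraries in 1 fit, 4 residual degrees of freedom), two-sided, with Benjamini-Hochberg adjustment over 17182 genes (FDR) and a threshold of 0.05. The study names edgeR and this adjustment but neither model nor filter. Standard errors are the log2 fold change divided by the square root of F. The procedure was tested on simulated counts. Alternatives were DESeq2 1.42.0, limma-voom (limma 3.58.1), the likelihood ratio test, other scalings and filters, a replicate block and leaving out libraries. An exact permutation test of 2 against 2 cannot go below 0.33. Near-identical transcripts were found with BLAST 2.17.0 in GENCODE M21, a different release from the one the authors used, and positions are from that annotation on GRCm38. Promoters are RefSeq sequences. Gene symbols, lists and members were chosen with earlier results of these data known.

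Genes named in full are those past the threshold in any of 6 comparisons, the 3 with the most CPM in each class and every H1 gene. H2bc14, Hist1h2bq, Hist1h2an and Hist1h2bp fall outside this rule and were named after their values were seen. From each related gene list the 3 with the smallest p in AngII vs CTRL are given, and Slbp and called S phase genes were added in the same way.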

Additional observations from a re-analysis of the deposited data

Results flagged for a closer look

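For 15 histone genes the response at the end of the infusion differed from that 3 weeks later. The test of the difference was AngII+3W vs AngII (edgeR, FDR under 0.05). The CTRL libraries cancel from this fold change, but they enter the estimate of the spread. The log2 fold changes were -2.40 for H1f1, -2.91 for H2ac11, -3.32 for H2ac12, -2.45 for H2ac13, -1.76 for H2ac15, -2.24 for H2ac8 and -2.58 for Hist1h2ap. In H2B they were -2.01 for H2bc3 and -3.93 for Hist1h2br, in H3 -2.57 for H3c1, -2.62 for H3c2, -2.09 for H3c3 and -2.13 for H3c4, and in H4 -1.72 for H4c12 and -1.54 for H4c2.

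Hist1h2br was also the gene whose response differed between the end of the infusion and 2 weeks after it, with a log2 fold change of -3.31 in AngII+2W vs AngII. Its copy Hist1h2bq had the opposite pattern of counts in the same libraries. With the pair summed, neither call was left (edgeR FDR = 0.0962 in AngII+3W vs AngII and 0.502 in AngII+2W vs AngII).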

How the results depend on the processing

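In AngII vs CTRL, 16 of 62 histone genes were called, and 28 with DESeq2, 31 with the likelihood ratio test and 17 with the replicate block. With near-identical genes summed, 4 of 22 rows were called. Over all genes there were 877 calls by edgeR's quasi-likelihood test, 1588 by DESeq2 and 1711 by the likelihood ratio test. With 1 library left out, the median log2 fold change of the histone genes was 0.81 to 1.40. In AngII+2W vs CTRL, where 0 were called, DESeq2 and the likelihood ratio test called 2, and leaving out a library gave 0 to 1. The 1 call in AngII+3W vs CTRL became 2 with DESeq2 and the likelihood ratio test, and 0 with library totals, with 10 or more counts in every library, with limma-voom, with only the 2 groups compared, with the replicate block, with near-identical genes summed and with the 2 pairs of copies summed, a sum chosen after the data were seen. Leaving out a library gave 0 to 1. The 1 call in AngII+2W vs AngII became 8 with every gene of 1 or more counts, 18 with DESeq2, 25 with the likelihood ratio test and 20 with only the 2 groups compared. It became 0 with library totals, with 10 or more counts in every library, with limma-voom, with the replicate block, with near-identical genes summed and with the pairs of copies summed, and 0 to 7 when 1 library was left out.

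The 15 calls in AngII+3W vs AngII became 9 with library totals, 27 with every gene of 1 or more counts, 37 with DESeq2 and 41 with the likelihood ratio test. They became 13 with the replicate block and 0 with only the 2 groups compared (where edgeR called 0 of 16579 genes). With near-identical genes summed, 3 of 22 rows were called. With 1 library left out, the median log2 fold change of the histone genes was -1.78 to -1.14. AngII+3W vs AngII+2W had 0 calls, and 1 with the likelihood ratio test. The cause of these differences was not tested. With 1 library left in a group, that library is assumed to vary like the others. The labels do not say whether replicate numbers pair mice between groups, and the correlation of their deviations ran from -0.04 to 0.25.

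Log2 fold changes of the named genes kept their direction in every called comparison under each of these settings. Over settings other than left-out libraries, 1821 of 1954 values stayed on the same side of the threshold, 94 were called in addition and 39 lost the call, and with a library left out these were 1562 of 1776, 23 and 191. The log2 ratio of AngII over CTRL for each class total, and of the total of all histone genes in the 6 comparisons, moved by less than the spread between libraries under the other scalings and choices of genes, and leaving out 1 of 2 libraries gave 0.20 to 0.55 for all histone genes in AngII over CTRL, and -0.47 to -0.22 in AngII+3W over CTRL. Depth limits the low genes: a level of 1 CPM is about 20 counts, and genes near the floor of 3 counts cannot show a decrease.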
